A study of Sus scrofa with 50 samples.

Results

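The 9 genes described here encode proteins of the muscle Z-disc and of the response of muscle to mechanical stress: CSRP3, ANKRD1, ANKRD2, MYOZ1, MYOZ2, XIRP1, XIRP2, ABRA and IGFN1. They were taken by name from 14414 Swiss-Prot protein entries, as all transcripts whose best protein match carried one of these names with an E value of at most 1e-10. This took 24 of the 57085 assembled pig transcripts, and the level of a gene is the sum over its transcripts in TPM (a transcript's share of its library, corrected for transcript length). The genes were chosen by name with TPM results of these libraries in view. CSRP3, ANKRD2 and IGFN1 had already stood out between the muscles in the same libraries, so that the levels by tissue and the difference between the muscles are given as descriptions with no test. The match closest to the limit was a 6252-nucleotide ANKRD2 transcript at an E value of 3.31e-13, with a mean of 11.9 TPM over the muscle libraries, and no transcript with a larger E value had a member as its best match.

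RNA was measured in Korean minipigs (Sus scrofa) of types labelled ET (5 animals, numbered S0235, S0242, S0276, S0309 with S0326) and L (5 animals, numbered S0349, S0355, S0377, S0384 with S0385), 2 names that the sources used here do not spell out. Values by animal are given in this order throughout. Each animal gave 1 library of tenderloin, loin, backfat, lymph and brain, so that there were 50 libraries in 10 groups of 5 and no treatment is named. The labels give no age, sex or litter. Both muscles are bulk tissue, in which fewer cells of a type and less RNA per cell cannot be told apart.

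The Z-disc is the border between neighbouring sarcomeres, where the thin filaments of both are anchored by alpha-actinin and titin reaches in from each side. Besides holding the sarcomeres in register, it is a place where stretch and load are sensed, and several of its proteins shuttle between the Z-disc and the nucleus. The muscle ankyrin repeat proteins, the Xin proteins and ABRA are known from rodents and humans to be induced in muscle by stretch, exercise or injury, while the myozenins mark fibre types, MYOZ1 the fast and MYOZ2 the slow fibres and the heart.

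The rule leaves out 5 libraries that stood apart from the others of their tissue, and these are in none of the main values. The loin library of S0355 had KCRM, the muscle creatine kinase, at 0.638 TPM and no member above 1.25 TPM, whereas the backfat library of the same animal had KCRM at 23749 TPM. Summed over 6 adipocyte markers, this loin library was at 12669 TPM, against 31.4 to 118 TPM in the loins kept. The backfat library of S0355 was at 119 TPM for the same sum. The lymph library of S0235 had the T cell marker CD3E at 3.13 TPM, against 406 to 750 TPM in the 9 lymph libraries kept, and UROM, a protein of the kidney tubule, at 2156 TPM, against 0.477 to 4.61 TPM. In brain, MBP of myelin was at 30538 TPM in S0235 and 37999 TPM in S0355, against 15.98 to 80.1 TPM in the 8 libraries kept, and the pituitary hormone PRL was at 11.1 and 13.98 TPM, against 805 to 40120 TPM. The labels name no brain region, so these values do not show which brain libraries fit the label. In the 45 libraries kept, KCRM was at 17458 to 34871 TPM in tenderloin, at 17145 to 31866 TPM in loin and at 0.0954 to 97.9 TPM in backfat, so that both muscles were muscle by this marker. Groups then held 5 ET and 5 L tenderloin, 5 ET and 4 L loin, 5 ET and 4 L backfat, 4 ET and 5 L lymph, and 4 ET and 4 L brain libraries. The number of reads behind the TPM is unknown, so the only error that can be given is the spread between animals.

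The transcripts behind the 9 genes were of unequal quality. XIRP1 rested on 1 transcript of 6941 nucleotides that matched residues 1 to 1837 of the human protein, and ANKRD2 had 98.6% of its tenderloin TPM in 1 transcript that matched residues 29 to 353 of the human protein. The leading CSRP3 transcript matched human residues 1 to 194 and the leading ANKRD1 transcript pig residues 1 to 319. The leading ABRA transcript matched the pig protein with 99.7% identity. MYOZ2 had 93.3% of its tenderloin TPM in 1 of 5 transcripts, which matched human residues 9 to 243. IGFN1 rested on 2 transcripts, both from lung assemblies. They matched human residues 399 to 1248 with 74.1% identity and mouse residues 118 to 994 with 54.7% identity. MYOZ1 was divided between a 549-nucleotide transcript that matched residues 226 to 298 and a 3171-nucleotide transcript that matched residues 1 to 298. XIRP2 was divided between a 3131-nucleotide transcript that matched mouse residues 3292 to 3782 and a 12514-nucleotide transcript that matched human residues 10 to 3374. These XIRP2 matches lay mostly side by side, whereas the shorter MYOZ1 match lay within the longer one. A protein read from several pieces is summed over all of them, so levels of different members are not on 1 scale, and the comparisons that follow are each within 1 gene.

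RefSeq places 8 of the genes on the pig build Sscrofa11.1, which is also the build in the submitters' processing notes. CSRP3 is on chromosome 2 (40219288 to 40240614), ABRA on chromosome 4 (30712238 to 30719495), MYOZ2 on chromosome 8 (104578942 to 104609367) and IGFN1 on chromosome 10 (23628967 to 23660631). XIRP1 is on chromosome 13 (23867476 to 23876850), XIRP2 on chromosome 15 (73665876 to 73741046), and chromosome 14 carries both MYOZ1 (76445109 to 76453014) and ANKRD1 (102603777 to 102612857).

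All 9 genes had a higher median in muscle than in the other tissues. They were chosen by name as muscle genes, so this describes their levels and is no separate result. For 8 of them each of the 19 muscle libraries lay above all 26 libraries of backfat, lymph and brain. No share over all entries is set beside this count. The exception was IGFN1, which was above all other tissues in 17 of the 19 muscle libraries. Median levels over muscle and over the other tissues were 597 and 0.772 TPM for CSRP3, 6938 and 0.317 TPM for MYOZ1, and 219 and 0.0208 TPM for XIRP1. The highest values of MYOZ1 (43.5 TPM), IGFN1 (11.1 TPM) and XIRP1 (5.48 TPM) outside muscle were all in the backfat library of the L animal S0385. That library also had the highest KCRM of the backfat libraries kept, at 97.9 TPM, and the part of muscle RNA in these values was not tested. Lymph was the highest tissue outside muscle by mean for XIRP2, at 1.05 ± 0.384 TPM, and for ANKRD1, at 0.936 ± 0.758 TPM (SD, n = 9).

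**Figure D1:**
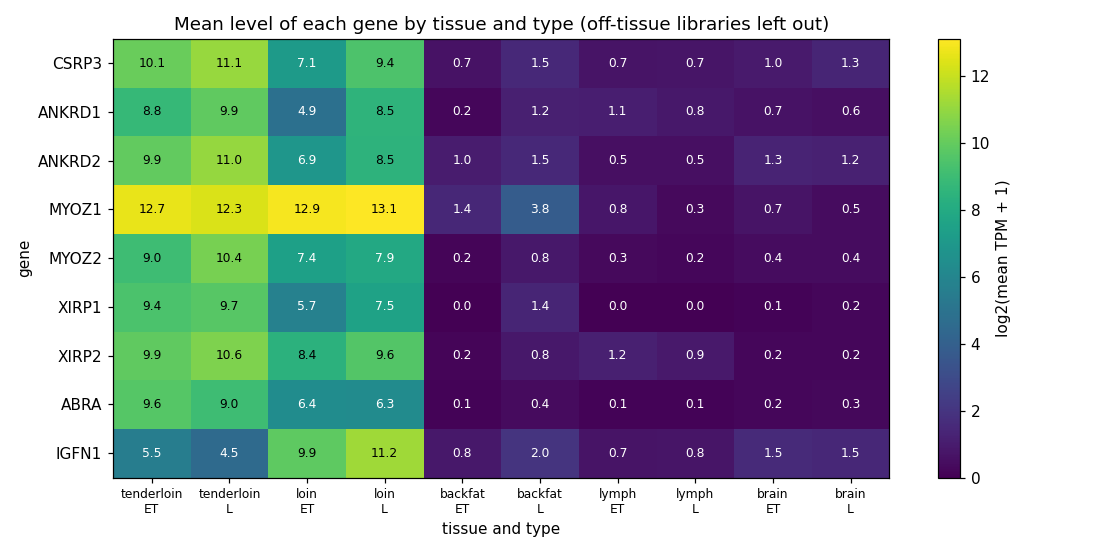
Mean level of each gene (down the page) by tissue and type (across), as log2(mean TPM + 1), with the value written in each cell and the 5 off-tissue libraries left out. The 4 muscle columns stand above the 6 others for every gene, closest for IGFN1, with means of 22.3 TPM in L tenderloin and 2.95 TPM in L backfat. IGFN1 is the one gene whose tenderloin cells are far below its loin cells.

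Between the 2 muscles the levels lay apart in both directions. Within the 9 animals with both muscles, 7 of the 9 genes averaged higher in tenderloin than in loin, and MYOZ1 and IGFN1 averaged lower. The mean difference in log2(TPM + 1), tenderloin minus loin, was 2.70 for ABRA (SD 1.41 over 9 animals), 2.53 for XIRP1 (SD 1.48), 2.52 for ANKRD2 (SD 1.39), 2.33 for CSRP3 (SD 1.38) and 2.13 for MYOZ2 (SD 0.80). It was 2.03 for ANKRD1 (SD 2.67) and 1.31 for XIRP2 (SD 1.32), and the median over all 10784 entries tested was -0.04. Neighbours in this order lie closer to each other than their SDs.

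ANKRD2 and MYOZ2 were higher in tenderloin in all 9 animals, as were 8.42% of all entries. CSRP3, XIRP1 and ABRA were higher in 8 animals, and ANKRD1 and XIRP2 in 7, counts with no share over all entries set beside them. The animal S0349 was the exception to all 5 of these genes: its tenderloin lay below its loin by 0.50 for CSRP3, 2.37 for ANKRD1, 0.64 for XIRP1, 0.83 for XIRP2 and 0.93 for ABRA on the log2 scale. ANKRD1 in S0377 was the other animal below 0 for that gene, at -0.13, and its values reached 6.41 in S0235, which made it the most variable of the genes that averaged higher in tenderloin.

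IGFN1, an immunoglobulin-like and fibronectin type III domain protein that binds the Z-disc proteins KY and filamin C, ran the other way in all 9 animals, as did 10% of all entries. Its difference averaged -5.86 (SD 2.63), with values of -2.0 in S0235 to -11.5 in S0349. The last value rests on a tenderloin library in which IGFN1 is listed at 0. MYOZ1, the fast-fibre myozenin, averaged -0.51 (SD 0.41) and was lower in tenderloin in 8 of 9 animals, S0276 being the exception at 0.25. The 2 myozenins, which share their partners calcineurin and alpha-actinin, thus had opposite signs in 8 of the 9 animals. No share over all entries is set beside these counts of 8 animals.

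Fibre markers moved with the same contrast. The summed level of 7 slow-fibre markers was 45116 to 63787 TPM in ET and 40860 to 106284 TPM in L tenderloins, and 8699 to 43364 TPM in ET and 7981 to 27867 TPM in L loins. The summed level of 7 fast-fibre markers was 20332 to 33443 TPM in ET and 9360 to 34405 TPM in L tenderloins, and 43018 to 96612 TPM in ET and 39716 to 67919 TPM in L loins. The part of fibre makeup in the levels of the 9 genes was not tested.

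**Figure D2:**
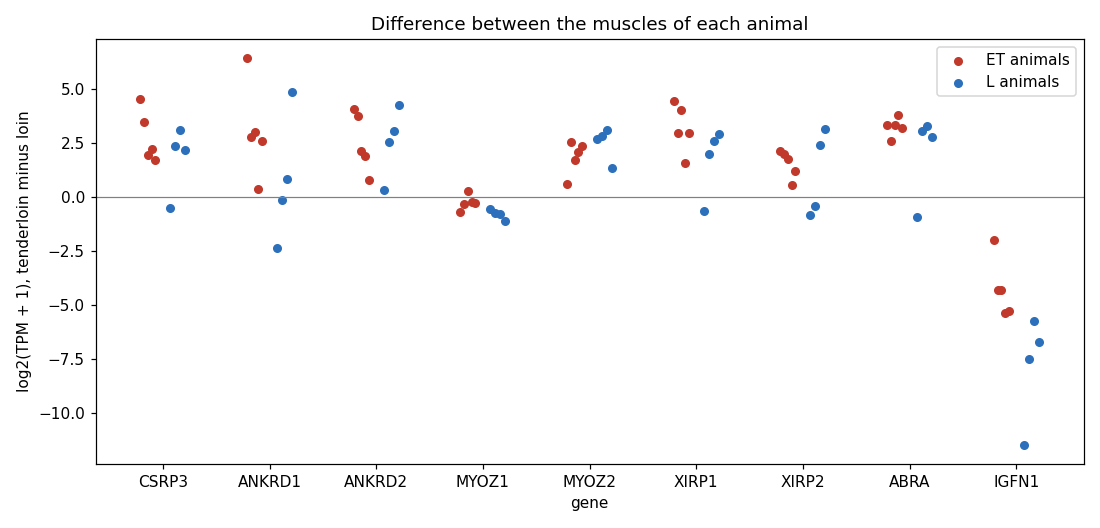
Difference between tenderloin and loin of the same animal for each gene, as log2(TPM + 1) in tenderloin minus that in loin, with 1 point for each of the 5 ET animals (red, left) and 4 L animals (blue, right). IGFN1 lies below 0 in all 9 animals, ANKRD2 and MYOZ2 lie above 0 in all 9, and the lowest CSRP3, ANKRD1, XIRP1, XIRP2 and ABRA points are those of S0349.

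The comparison of the ET and L types, the aim stated for the series, was tested with limma on log2(TPM + 1) across all entries in each tissue. All 9 genes passed the filter on low values in tenderloin and in loin, and 4 of them in backfat. In loin 5 of the 9 were lower in ET than in L, where 31.4% of all 10572 entries passed at an adjusted p under 0.05, 25.2% as lower and 6.17% as higher. The 5 were ANKRD1, CSRP3, ANKRD2, XIRP1 and IGFN1. The median log2 fold change, ET over L, of the 9 was -1.67 in loin against -0.23 over all entries, and -0.53 in tenderloin against 0.05. In tenderloin none of the 9 passed (0 of 9, with 3 at an unadjusted p under 0.05), where 1.63% of all 10852 entries passed, and the ET and L ranges of all 9 overlapped, while those of 5.24% of all entries did not.

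The muscle ankyrin repeat proteins ANKRD1 and ANKRD2 bind titin in its elastic part and are found both there and in the nucleus. In loin, ANKRD1 was at 15.3, 44.4, 26.1, 4.06 and 50.1 TPM in the ET animals in the order given above, and at 438, 452, 485 and 110 TPM in the L animals S0349, S0377, S0384 and S0385. All 5 ET values lay below all 4 L values, as in 4 of the 9 genes here and in either direction in 25.4% of all entries. ANKRD1 averaged 28.0 ± 19.3 TPM in ET loin and 371 ± 175 TPM in L loin (SD, n = 5 and 4), a ratio of 0.0755, and its log2 fold change of -3.87 (SE 0.64, limma adjusted p = 0.00292) was the largest among the 9.

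ANKRD2 was at 190, 66.6, 84.6, 41.6 and 193 TPM in the same 5 ET loins, against 468, 473, 272 and 186 TPM in the 4 L loins. The groups overlapped by the L animal S0385, which lay below 2 ET animals. The fall was smaller than that of ANKRD1 in log2 terms, at -1.73 (SE 0.45, limma adjusted p = 0.0158), and without S0377 the adjusted p was 0.0501.

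In tenderloin neither gene passed. ANKRD1 was at 1392, 302, 215, 5.49 and 308 TPM in ET and at 83.9, 230, 411, 852 and 3198 TPM in L, where all 5 animals have a tenderloin library. Both groups spread widely and overlapped (log2 fold change -1.38, SE 1.27, limma adjusted p = 0.583), and the log2 fold change was -0.19 without S0309, -0.69 without S0385 and -2.12 without S0235. ANKRD2 was at 3177, 900.1, 375, 156 and 327 TPM in ET and at 581, 1210 (S0355), 2744, 2250 and 3496 TPM in L. S0235 stood with the higher L animals, and the other 4 ET animals lay at or below 900.1 TPM (log2 fold change -1.62, SE 0.72, adjusted p = 0.234 by limma).

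CSRP3, the muscle LIM protein, binds alpha-actinin and telethonin and is known for its mutations in human cardiomyopathy. In loin it was at 140, 21.0, 144, 128 and 261 TPM in ET and at 1328, 721, 295 and 383 TPM in L. The groups did not overlap, with the highest ET loin (S0326, 261 TPM) just under the lowest L loin (S0384, 295 TPM). CSRP3 averaged 139 ± 85.2 TPM in ET and 682 ± 468 TPM in L (SD, n = 5 and 4), a log2 fold change of -2.40 (SE 0.63, limma adjusted p = 0.0167).

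In tenderloin CSRP3 was at 3226, 244, 549, 597 and 856 TPM in ET and at 937, 2111, 3644, 2497 and 1730 TPM in L. Apart from S0235, every ET tenderloin lay below every L tenderloin. The difference did not pass with all libraries (log2 fold change -1.43, SE 0.57, limma adjusted p = 0.197), nor without S0235, where the log2 fold change was -1.96 and the adjusted p 0.0520.

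The myozenins tether calcineurin to alpha-actinin, and their levels did not pass the test in either muscle. MYOZ1 varied little between animals, at 7785, 8533, 6443, 8204 and 7909 TPM in ET loin and at 8886, 7357, 9990 and 8849 TPM in L loin (log2 fold change -0.17, SE 0.21, limma adjusted p = 0.553, and 0.049 as a log2 fold change with median-ratio scaling). In tenderloin it averaged 6521 ± 1102 TPM in ET and 5190 ± 942 TPM in L (SD, n = 5 each), a log2 fold change of 0.33 (SE 0.20, limma adjusted p = 0.378). MYOZ2 was at 623, 342, 332, 795 and 517 TPM in ET tenderloin and at 938, 1615, 2521, 680 and 944 TPM in L tenderloin. Of the L animals only S0384 lay within the ET range, and MYOZ2 had the smallest p of the 9 genes in tenderloin (log2 fold change -1.28, SE 0.36, unadjusted p = 0.00379, limma adjusted p = 0.0872). In loin MYOZ2 averaged 172 ± 141 TPM in ET and 239 ± 149 TPM in L (SD, n = 5 and 4), with overlapping values (log2 fold change -0.54, SE 0.57, adjusted p = 0.485 by limma).

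XIRP1 and XIRP2 are the Xin proteins, which bind actin filaments, are found at the myotendinous junction and gather at damaged sites of muscle fibres. XIRP1 was at 78.8, 48.9, 29.9, 26.9 and 76.6 TPM in ET loin and at 110, 219, 119 and 288 TPM in L loin. The groups did not overlap, and XIRP1 was lower in ET (log2 fold change -1.81, SE 0.38, limma adjusted p = 0.00679). In tenderloin it was at 1743, 390, 495, 82.5 and 592 TPM in ET and at 69.96, 266, 871, 722 and 2161 TPM in L, with the groups across the same range (log2 fold change -0.12, SE 0.90, adjusted p = 0.956 by limma).

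XIRP2 was at 258, 239, 249, 453 and 505 TPM in ET loin and at 1018, 1394, 443 and 286 TPM in L loin. The L animals S0349 and S0377 lay above all ET animals, while S0384 and S0385 lay among them (log2 fold change -1.01, SE 0.43, limma adjusted p = 0.0922). Without S0385 it passed, with a log2 fold change of -1.40 and an adjusted p of 0.0310. In tenderloin XIRP2 averaged 939 ± 210 TPM in ET and 1531 ± 852 TPM in L (SD, n = 5 each), a log2 fold change of -0.53 (SE 0.37, limma adjusted p = 0.448).

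ABRA, also named STARS, binds actin and is known from cell culture and rodents to release myocardin-related factors that switch on serum response factor. It did not pass in either muscle. In tenderloin it was at 2093, 418, 362, 537 and 520 TPM in ET and at 18.3, 307, 733, 905 and 669 TPM in L. A single library set each end of the range, S0235 the highest and S0349 the lowest (log2 fold change 1.02, SE 0.92, limma adjusted p = 0.577). Without S0349 the log2 fold change was 0.021, and without S0235 it was 0.57. In loin ABRA averaged 82.3 ± 73.7 TPM in ET and 78.8 ± 28.9 TPM in L (SD, n = 5 and 4; log2 fold change -0.18, SE 0.48, adjusted p = 0.797 by limma), and the sign turned with median-ratio scaling (0.039). S0235 was at 212 TPM in this ET group, and the other 4 were at 35.5 to 70.01 TPM.

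IGFN1 was at 207, 1602, 1186, 1130 and 513 TPM in ET loin and at 2849, 1649, 2923 and 2313 TPM in L loin. The highest ET loin lay just under the lowest L loin, and IGFN1 was lower in ET (log2 fold change -1.67, SE 0.51, limma adjusted p = 0.0284). The call did not hold without S0326, S0349, S0384 or S0385, where the log2 fold changes kept their sign and the adjusted p lay between 0.0553 and 0.0688. It was also lost with median-ratio scaling (log2 fold change -1.45, adjusted p = 0.0703) and with no filter on low values (adjusted p = 0.0535).

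In tenderloin IGFN1 was at 50.9, 80.3, 58.9, 26.3 and 11.9 TPM in ET and at 0, 28.8, 7.96, 53.9 and 21.0 TPM in L. The ranges overlapped and the fold change had the other sign (log2 fold change 1.62, SE 0.91, limma adjusted p = 0.348). It was 0.71 without S0349, the library listed at 0. The difference between the 2 type effects was itself tested with the animal as a block over the 18 libraries of the 9 animals. IGFN1 was the 1 member that passed, with a type effect in loin minus that in tenderloin of -3.60 (SE 0.97, limma adjusted p = 0.0379), where 9.64% of all 10784 entries passed in either direction and 8.96% as smaller in loin. This call was fragile: it held without S0349 or S0384 and was lost without each of the other 7 animals (adjusted p 0.0552 to 0.0929), and without the animal block the adjusted p was 0.123.

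For the other 8 members the type effect could not be shown to differ between the muscles. The differences in log2 fold change, loin minus tenderloin, were -2.23 for ANKRD1 (SE 1.27, adjusted p = 0.248 by limma), -1.48 for XIRP1 (SE 0.68, adjusted p = 0.161), -1.20 for ABRA (SE 0.68, adjusted p = 0.244) and -1.0 for CSRP3 (SE 0.69, adjusted p = 0.340). They were -0.56 for MYOZ1 (SE 0.25, unadjusted p = 0.0477, adjusted p = 0.157 by limma), the smallest p of the 8, and -0.44 for XIRP2 (SE 0.70, adjusted p = 0.695). MYOZ2 had the other sign at 0.63 (SE 0.41, adjusted p = 0.311 by limma). ANKRD2 was at 0.01 with an SE of 0.75 (adjusted p = 0.992 by limma) and lay between -0.55 and 0.75 without each animal in turn, so that the data set no close limit on its difference.

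**Figure D3:**
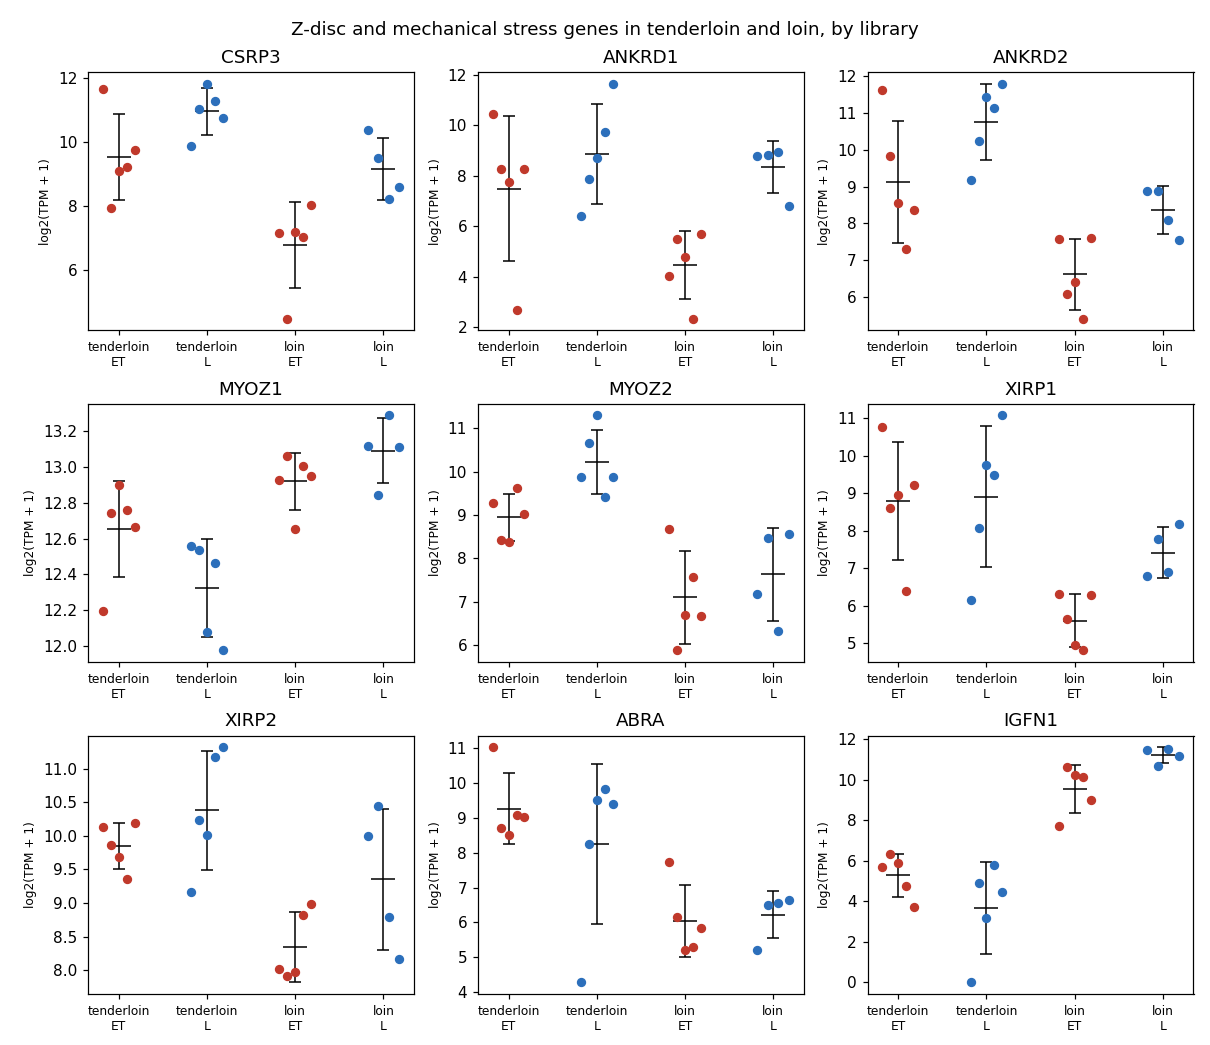
Level of each gene in log2(TPM + 1) in each library of tenderloin ET, tenderloin L, loin ET and loin L (ET red, L blue), with the mean and 1 SD of 5 libraries, or 4 for L loin; each panel has its own axis. In loin all ET points of CSRP3, ANKRD1, XIRP1 and IGFN1 lie below all L points, and in tenderloin every gene overlaps.

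**Figure D4:**
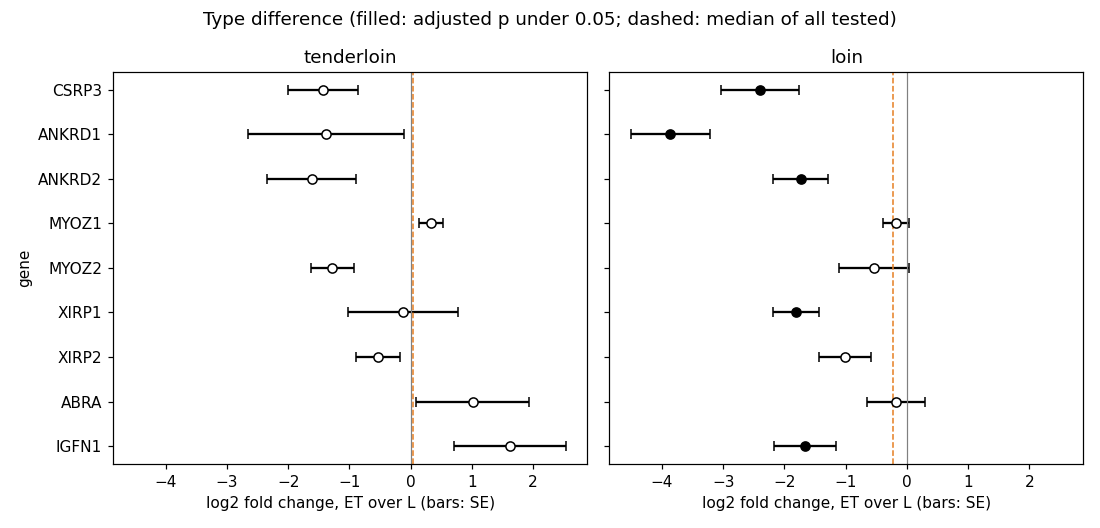
Log2 fold change, ET over L, of each gene in tenderloin (left) and loin (right), with bars of 1 SE, filled points for an adjusted p under 0.05 and a dashed line at the median of all entries tested. The 5 filled points are CSRP3, ANKRD1, ANKRD2, XIRP1 and IGFN1 in loin, at -3.87 to -1.67.

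Some markers of cell and fibre types differed between ET and L. All 5 fibroblast markers were higher in ET loin, with summed levels of 159 to 920 TPM in ET and 122 to 228 TPM in L, and 4 of 5 in ET tenderloin, at 487 to 707 TPM in ET and 185 to 223 TPM in L. In loin 1 of 7 slow-fibre markers (MYL3) and 2 of 7 fast-fibre markers (MYH2 and PRVA) passed as higher in ET and none passed as lower. AT2A1 (-0.62, limma adjusted p = 0.0549), AT2A2 (-0.53, adjusted p = 0.198) and MYH7 (-0.23, adjusted p = 0.751) had the other sign there. In tenderloin none of the 14 passed. The muscle markers ACTS and TNNC2 were higher in ET loin, ACTS by 1.33 (limma adjusted p = 0.0175), while KCRM (0.18, adjusted p = 0.644) did not pass. Of 3 adipocyte markers that could be tested, LIPS was lower in ET loin (-2.02, limma adjusted p = 0.00790). FABP4 (1.03, adjusted p = 0.180) and CIDEC (0.48, adjusted p = 0.214) had the other sign there and did not pass. None of the 3 passed in tenderloin, and none of 3 markers of immature fibres passed in either muscle. The part of these markers in the lower members in ET loin was not tested.

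Among 51 other proteins of the Z-disc and sarcomere, 3 were higher and 19 lower in ET loin of 50 tested, with a median of -0.39 against -0.23 over all entries. The shares over all entries tested there were 6.17% higher and 25.2% lower, so that 3 of 50 is close to the share of all entries. The lowest p among those lower were NRAP, an anchoring protein of growing myofibrils, at 138 ± 22.8 TPM in ET and 726 ± 198 TPM in L loin (log2 fold change -2.36, limma adjusted p = 0.000220), and KLH40, a stabiliser of thin filament proteins (-1.97, adjusted p = 0.00125). FLNC, filamin C, which binds Xin proteins, averaged 295 ± 112 TPM in ET and 815 ± 82.4 TPM in L loin (-1.53, adjusted p = 0.00253), and KLH41, a relative of KLH40, was also lower (-1.28, adjusted p = 0.00261). The 3 that were higher were KY, a partner of IGFN1 and filamin C, at 21.9 ± 6.52 TPM in ET and 6.53 ± 4.60 TPM in L loin (1.83, adjusted p = 0.00954), ACTN1 (0.82, adjusted p = 0.0158) and MYOZ3, the third myozenin (0.58, adjusted p = 0.0392). Loin means here are over 5 ET and 4 L animals with SDs. Without S0377 the list had 1 higher and 11 lower, with median-ratio scaling 4 higher and 12 lower, and with every labelled library kept 0 in either direction by limma and a median of 0.52. Over all 10577 entries tested without S0377, 319 were higher and 1594 lower. With median-ratio scaling 1117 of all 10572 were higher and 1453 lower.

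In tenderloin 0 of the 51 passed by limma, with a list median of -0.07. The type effect differed between the muscles for 11 of them, 1 with a larger and 10 with a smaller value in loin than in tenderloin, where 9.64% of all entries passed and 8.96% had the smaller value in loin. The first was CSRP2, a LIM protein related to CSRP3 (1.15, limma adjusted p = 0.0163), and those with the smallest p among the 10 were TRI63, the ubiquitin ligase MuRF1 (-1.51, adjusted p = 0.0168), LMOD2 (-1.29, adjusted p = 0.0211), ACTN3, the alpha-actinin of fast fibres (-1.70, adjusted p = 0.0253), and NRAP (-2.32, adjusted p = 0.0255). With median-ratio scaling and with no animal block the 10 became 0, and with every labelled library kept or without S0377 none of the 51 passed. With no filter 4 passed, and between 4 and 8 passed without S0235, S0242, S0276, S0309, S0326 or S0385.

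Of 30 entries for strain and serum response factors, 23 could be tested. In loin 3 of the 23 were lower in ET, a smaller share than the 25.2% of all entries that were lower there: TEAD1 at 55.2 ± 10.03 TPM in ET and 107 ± 23.5 TPM in L (log2 fold change -0.94, limma adjusted p = 0.00460), MEF2D (-0.75, adjusted p = 0.00525) and MRTFB, one of the factors that ABRA is known to release (-0.66, adjusted p = 0.0167). Without S0235 5 were lower, and with median-ratio scaling 2 were higher and 3 lower. Over all entries, 2388 of 10509 were lower without S0235. With median-ratio scaling 1117 of all 10572 were higher and 1453 lower. In tenderloin 1 of the 23 passed, where 1.63% of all entries did: NFAC1, a target of calcineurin, was higher at 30.3 ± 6.40 TPM in ET and 12.6 ± 1.28 TPM in L (1.19, limma adjusted p = 0.0126), and it did not pass without S0377, with 1 transcript per entry or with an E value of at most 1e-50. The type effect of 7 of the 23 was smaller in loin than in tenderloin (8.96% of all entries), among them TEAD1 (-1.73, adjusted p = 0.00592), NFAC1 (-1.36, adjusted p = 0.00417), JUNB (-1.57, adjusted p = 0.0136) and MEF2A (-0.95, adjusted p = 0.0104), and 2 of the 23 passed with median-ratio scaling or with no animal block, and 4 without S0276 or S0326.

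In backfat ANKRD2, CSRP3, IGFN1 and MYOZ1 reached the mean of 1 TPM needed for a test and none passed (limma, with CSRP3 at an unadjusted p of 0.0469), where 8.57% of all 12111 entries did. CSRP3 averaged 0.572 ± 0.227 TPM in ET and 1.88 ± 1.39 TPM in L, and IGFN1 0.798 ± 1.78 TPM in ET and 2.95 ± 5.47 TPM in L (SD, n = 5 and 4), so both reached it through the L group, where they are higher, and without S0385 neither did. Their tests are therefore no support for a difference or for its lack. MYOZ1 averaged 1.70 ± 3.56 TPM in ET and 12.9 ± 20.6 TPM in L backfat (SD, n = 5 and 4), with S0309 and S0385 the highest of their groups at 8.06 and 43.5 TPM. These 2 libraries also had KCRM at 44.4 and 97.9 TPM.

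The members varied together in part over the 19 muscle libraries, which share tissue and type. Pearson's r of log2(TPM + 1) was 0.87 between ANKRD2 and XIRP1, 0.85 between CSRP3 and ANKRD2, 0.84 between ANKRD1 and ANKRD2 and 0.82 between XIRP1 and ABRA. MYOZ1 and IGFN1 had negative r with each of the other 7 and an r of 0.72 with each other, and the r of MYOZ2 with IGFN1 was -0.80. The entries most like a member, of 7513 with a mean of at least 5 TPM, were HSPB7 for CSRP3 (r = 0.943), CRYAB for ANKRD2 (0.955), FLNC for ANKRD1 (0.891), TNR12 for XIRP1 (0.948) and SLMAP for XIRP2 (0.878). They were SKT for ABRA (0.917), TFDP2 for MYOZ1 (0.903), NUDT7 for MYOZ2 (0.942) and PYC, pyruvate carboxylase, for IGFN1 (0.970). Some entries came up for more than 1 member: the small heat shock protein CRYAB was the second for CSRP3 (0.912), and FLNC the second for XIRP1 (0.930). AT2A1, the calcium pump of fast fibres, was the second for IGFN1 (0.961).

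Single animals set much of the spread in tenderloin. S0235 was the highest ET tenderloin for 5 of the 9 members and S0349 the lowest L tenderloin for 7 of the 9, and S0385 was the highest L tenderloin for 4. These members vary together, and no count over all entries is set beside theirs. S0349 had the lowest fast-fibre marker sum of the tenderloins, at 9360 TPM. The tenderloin of S0235 lay within the range of the others for both sums, at 51848 TPM for slow-fibre and 24482 TPM for fast-fibre markers. Its loin had the highest slow-fibre marker sum of the loins, at 43364 TPM. The part of fibre makeup in these values was not tested.

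The share of a gene's TPM outside its most complete transcript differed between the types in tenderloin for some members, a pattern noticed after the values were seen and given with no test. For CSRP3 these other transcripts, of 3391 to 8493 nucleotides and each matching 37 or 82 residues of the protein, took 9.23% to 33.2% of the TPM in ET and 4.10% to 8.91% in L tenderloins. For ANKRD2 the 6252-nucleotide transcript took 0.495% to 5.04% in ET and 0.165% to 0.471% in L tenderloins. Neither pair of ranges overlapped, though the ANKRD2 ranges were only just apart (lowest ET 0.495%, highest L 0.471%). In TPM these other transcripts did overlap. They were at 31.4 to 471 TPM in ET and 38.4 to 283 TPM in L for CSRP3, and at 1.88 to 160 and 0.959 to 13.1 TPM for ANKRD2. The most complete transcript averaged 914 TPM in ET and 2050 TPM in L for CSRP3, and 951 and 2049 TPM for ANKRD2. Of all 7577 entries with several transcripts and a mean of at least 1 TPM in tenderloin, 1.93% had shares that did not overlap, 1.41% with all ET above all L. For ANKRD1 the shares were 8.08% to 46.6% in ET and 2.50% to 20.1% in L, and for MYOZ2 6.22% to 26.9% in ET and 2.50% to 8.17% in L, both with overlap. The shares of MYOZ1, XIRP2, ABRA and IGFN1 overlapped as well. In loin the CSRP3 ranges overlapped, at 3.03% to 15.1% in ET and 3.10% to 6.05% in L. Counted by the 1 transcript with the highest mean, the log2 fold changes in tenderloin were -1.63 for CSRP3 and -1.65 for ANKRD2, and neither passed (limma adjusted p = 0.202 and 0.281).

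**Figure D5:**
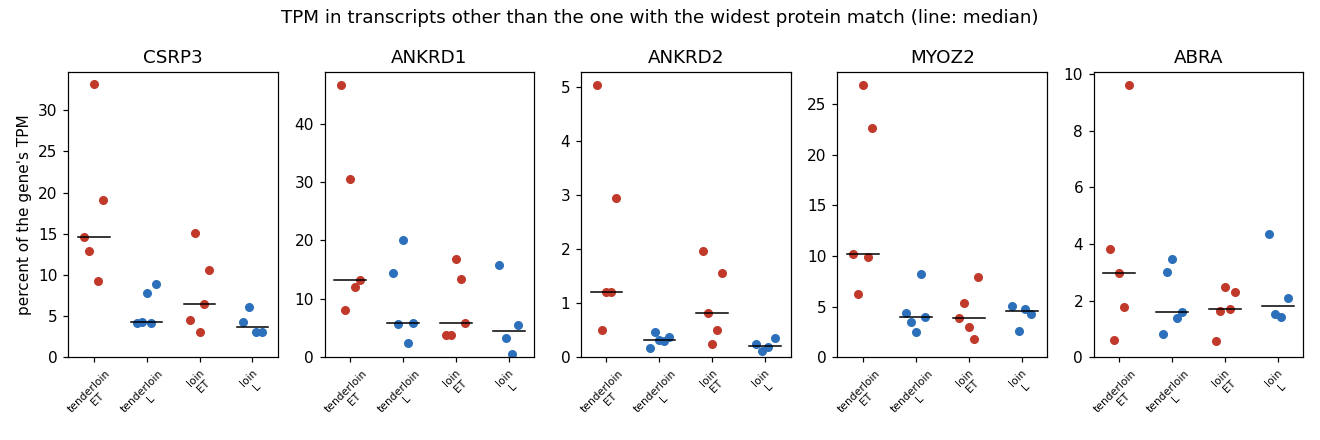
Percent of a gene's TPM in transcripts other than the one with the widest protein match, for each library of tenderloin ET, tenderloin L, loin ET and loin L (ET red, L blue; line, median), with an axis of its own for each gene. In tenderloin the ET points of CSRP3 and ANKRD2 lie above all L points, and those of ANKRD1, MYOZ2 and ABRA overlap with L.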

How the data were processed

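The authors deposited TPM for each of 57085 assembled transcripts in 50 libraries, in which every column sums to 1000000 and no read count is given. Per the labels' protocols, total RNA came from a TRIzol extraction and the libraries from a stranded mRNA kit. Trimmomatic 0.36, Salmon 1.10.0 and the build Sscrofa11.1 are named in the submitters' processing notes, which do not say what the build was for. Transcript names point to 20 assemblies of 10 tissues.

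Here transcripts with a best hit at an E value of at most 1e-10 in the deposited annotation were summed by Swiss-Prot entry (32157 transcripts, 14414 entries). The other transcripts had no hit (20601), a larger E value (1864), or a hit to a repeat protein (2451) or to a protein from outside animals (12). TPM was not rescaled. ET and L were compared within a tissue by linear models on log2(TPM + 1) in limma 3.58.1 (R 4.3.3), whose moderated variance followed the mean level, for entries with a mean TPM of at least 1. Tests were two-sided, with Benjamini-Hochberg adjustment over all entries of the fit and a call at an adjusted p under 0.05. Fold changes on this scale understate the change of low genes. The fit was also run on simulated data, with independent errors for each library and as many raised as lowered entries. Such data cannot probe the animal block or the shift of fold changes in loin.

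The type effect in loin minus that in tenderloin was fitted over 9 animals with the animal as a block, since the labels give both muscles of an animal 1 number. Deviations from the group means correlated with a median r of 0.45 between the muscles of an animal (0.35 to 0.63, 9 pairs) and of -0.15 between animals of 1 type (32 pairs). Deviations cancel within a group, so the negative value between animals largely follows from the centring and is no separate result.

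The members, lists and tests were chosen with earlier results of these data known. All 9 members are named in both muscles and in the test of the difference between them, and in backfat the 4 that passed the filter, with up to 4 called entries per list and direction by smallest p and the most alike entries by r. MLRV is the slow light chain counted among the slow-fibre markers. Alternatives were another scaling, a pseudocount of 0.1, no filter, 1 transcript per entry, an E value of at most 1e-50, no trend, every labelled library, no block, and each animal left out.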

Additional observations from a re-analysis of the deposited data

Results flagged for a closer look

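In 8 of 36 groups of 4 or 5 libraries, 1 library lay far from the others by Dixon's criterion. The criterion was taken on TPM and not on the log2 scale of the tests. The groups are members measured in the same libraries and are not independent, so no chance rate is set against the 8. S0235 was far above the other ET tenderloins for CSRP3 (3226 TPM, the others at 244 to 856), ANKRD1 (1392 TPM, the others at 5.49 to 308), ANKRD2 (3177 TPM, the others at 156 to 900.1) and ABRA (2093 TPM, the others at 362 to 537). It was also the highest ET loin for ABRA, at 212 TPM with the others at 35.5 to 70.01. ANKRD1 in the L animal S0385 was the highest L tenderloin at 3198 TPM (the others at 83.9 to 852) and the lowest L loin at 110 TPM (the others at 438 to 485), so that the same animal lay at opposite ends in its 2 muscles. ABRA in S0349 was the lowest L loin at 35.9 TPM, with the others at 88.5 to 98.6.

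The type effect of IGFN1 in loin minus that in tenderloin was -3.60 on the log2 scale. It was the 1 member of 9 that passed this test, where 9.64% of all 10784 entries passed, so the count is near that share. The call held in 2 of the 9 fits that each left 1 animal out. It was lost with median-ratio scaling, with the pseudocount of 0.1, with no filter and with no animal block. IGFN1 is listed at 0 in the L tenderloin of S0349.

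The left-out backfat library of S0355 carried all 9 genes at levels of muscle. It had CSRP3 at 1554 TPM (0.356 to 3.72 in the other backfat libraries), ANKRD1 at 302 TPM (0.110 to 2.47), ANKRD2 at 535 TPM (0.497 to 2.21), MYOZ1 at 7681 TPM (0 to 43.5) and MYOZ2 at 438 TPM (0.0459 to 1.06). It had XIRP1 at 174 TPM (0 to 5.48), XIRP2 at 703 TPM (0 to 2.37), ABRA at 177 TPM (0 to 1.04) and IGFN1 at 931 TPM (0 to 11.1). For IGFN1 this is above the highest tenderloin library (80.3 TPM) and within the range of the ET loins. The left-out brain libraries had ANKRD2 at 10.7 TPM in S0235 and 9.92 TPM in S0355, with the other brain libraries at 0.348 to 2.15, and MYOZ1 was at 22.2 TPM in S0235, with the others at 0.0672 to 1.17.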

How the results depend on the processing

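No setting led to a call of a member in tenderloin, and without each animal in turn the count was 0 to 0. In loin the 5 calls became 4 to 5 without each animal in turn, and 0 with every labelled library kept (ANKRD1 -2.30, limma adjusted p = 0.372). S0355 was then an L loin again, a library with adipocyte markers at a sum of 12669 TPM and KCRM at 0.638 TPM. Keeping every labelled library also reversed ABRA (1.05), IGFN1 (0.51), MYOZ1 (2.44), MYOZ2 (0.95) and XIRP2 (0.86). Median-ratio scaling reversed ABRA (0.039) and MYOZ1 (0.049). In backfat the count was 0 to 0 without each animal and 1 with no filter, where MYOZ2 was tested and lower in ET (-0.63, limma adjusted p = 0.0249). With no filter 904 of all 14286 entries were called there. MYOZ2 in backfat was below the filter, at a mean of 0.152 TPM in ET and 0.797 TPM in L. The 1 call of the muscle dependence, IGFN1, became 0 with median-ratio scaling, with the pseudocount of 0.1, with no filter, with every labelled library kept and with no replicate block, and 0 to 1 without each animal (-4.31 to -2.40). Every labelled library kept reversed ABRA (0.032), CSRP3 (0.71), MYOZ1 (2.11) and XIRP2 (1.39) there. Without each animal in turn the sign changed for XIRP1 in tenderloin (-0.82 to 0.48), for ABRA in loin (-0.60 to 0.033), and for ANKRD2 (-0.55 to 0.75) and XIRP2 (-1.14 to 0.19) in the muscle dependence. Except where the added library is the change, the cause was not tested.

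Over all entries, calls in tenderloin numbered 177, 105 with median-ratio scaling, 39 with 1 transcript per entry, 117 with an E value of at most 1e-50, 30 without S0235 and S0355 together, and 5 (without S0377) to 374 (without S0385) without each animal. Leaving out S0235 or S0349 moved it by less than 1.5 times, and each other animal by more. Calls in loin numbered 3317, 721 with every labelled library, and 1913 (without S0377), 2106 (without S0326) to 3338 without each animal. Calls in backfat numbered 1038, 648 with 1 transcript per entry, 573 with every labelled library and 316 (without S0384) to 1374 without each animal. Calls of the muscle dependence numbered 1040, 260 with median-ratio scaling, 620 with no filter, 615 with 1 transcript per entry, 77 with no replicate block, 0 with every labelled library (limma; 2208 at an unadjusted p under 0.05) and 156 (without S0377) to 1535 (without S0349) without each animal. As deposited, the split of higher and lower was 652 and 2665 in loin, 152 and 25 in tenderloin, 912 and 126 in backfat and 74 and 966 for the muscle dependence. With median-ratio scaling it was 1117 and 1453, 73 and 32, 494 and 257, and 137 and 123 in that order, and the loin median was -0.03 in place of -0.23. Read depth is unknown and sets no limit that can be computed.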
